A study of Homo sapiens with 18 samples.

Results

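The outer stretch of the short arm of human chromosome 20, from base 270863 to base 13638932 on the hg38 assembly, held 69 genes that are described together here. The mRNA of most of them was lower in both PCIF1 knockout clones of a melanoma line than in its control line. They were chosen as the genes of that stretch whose mean reached 1 TPM (transcripts per 1000000, a length-normalised abundance) over 9 libraries. TRIB3 and the genes whose symbols start with ZNF, MRP, NDUF, PSM or SLC were left out by that rule. The stretch held 77 listed genes, of which 75 reached the minimum, and 69 remained of 14512 tested genes in all. The stretch was selected on the log2 fold changes of KO1 and KO2 against control, so those values are a description and no p-value of theirs is given. The genes encoded elsewhere whose products work with the members were not used in the choice and were tested. The difference between the clones was tested too. That difference is the KO2 fold change minus the KO1 fold change, so it is not independent of the choice.

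The libraries were made from MEL624 cells, an established human melanoma line, in 3 lines. KO1 and KO2 are clonal PCIF1 knockout lines, and the control is the wild-type line carrying a random sgRNA. PCIF1 adds a methyl group to the first transcribed adenosine, beside the cap, of mRNAs that start with that base. Each line had 3 biological replicates, named A to C, of input mRNA, and 9 further libraries of m6A-immunoprecipitated mRNA were not analysed here. Each knockout line is 1 clone, so the loss of PCIF1 and other differences between a clone and the control line cannot be told apart, and the replicates measure the spread within a line. Reads counted on genes ranged from 7848089 to 11393206 per library. PCIF1, which itself lies on the long arm of chromosome 20, had 24.7, 22.0 and 25.3 TPM in KO1, 58, 64.7 and 58.1 TPM in KO2, and 55.2, 62.0 and 55.6 TPM in control. Its mRNA was thus lower in KO1, while the KO2 and control libraries overlapped. An edit that changes the protein need not change the mRNA level, so this level checks the label of KO1 but not that of KO2. Of 11 melanocyte lineage markers only MITF and RAB38 were listed in the deposited table, with a summed level of 56.2 to 61.9 TPM in KO1, 82.9 to 91.4 TPM in KO2 and 53.1 to 60.5 TPM in control. MITF averaged 26.3 TPM in KO1, 50 TPM in KO2 and 37.1 TPM in control, and RAB38 averaged 33 TPM in KO1, 36.8 TPM in KO2 and 20.8 TPM in control. MLANA, PMEL, TYR, TYRP1, DCT and SOX10 were not among the listed genes.

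Genes that are neighbours on a chromosome usually serve unrelated functions, and this stretch is an example. It carries the sliding clamp of DNA replication (PCNA), the shared core protein of spliceosomal RNPs (SNRPB), the prion protein (PRNP), a Notch ligand (JAG1) and a bone morphogenetic protein (BMP2). Of the 69 members 64 were annotated as protein coding, 4 as long noncoding RNA and 1 as a processed pseudogene. The members lay on both strands, 34 on the plus strand and 35 on the minus strand, over a span of 13.4 Mb. Their abundance was ordinary. The mean level of a member ranged from 1.1 to 1170 TPM with a median of 20.0 TPM, beside a median of 19.3 TPM over all tested genes.

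Because PCIF1 acts on the first transcribed base, the start sites of members described below are shown with that base in capitals. Each window runs from 30 bases before to 10 bases after the start on the transcribed strand, and comes from RefSeq on GRCh38.p14. The first 3 belong to members at which the clones differed most, and the next 5 to abundant members from 4 role lists. BTBD3 is shown as a member at which clones and control did not stand apart. BMP2, SIRPA, SNAP25 and PRNP had no entry in that table.
RASSF2, chr20:4815137-4815177, minus strand: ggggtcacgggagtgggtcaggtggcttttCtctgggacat
SNPH, chr20:1266264-1266304, plus strand: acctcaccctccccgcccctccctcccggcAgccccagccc
JAG1, chr20:10673989-10674029, minus strand: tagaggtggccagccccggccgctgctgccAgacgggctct
SNRPB, chr20:2470779-2470819, minus strand: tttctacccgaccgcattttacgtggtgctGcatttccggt
PCNA, chr20:5126612-5126652, minus strand: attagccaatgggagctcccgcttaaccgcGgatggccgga
FKBP1A, chr20:1393044-1393084, minus strand: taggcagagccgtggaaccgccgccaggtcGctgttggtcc
IDH3B, chr20:2664206-2664246, minus strand: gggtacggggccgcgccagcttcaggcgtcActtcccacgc
RBCK1, chr20:408269-408309, plus strand: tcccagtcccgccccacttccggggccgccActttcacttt
BTBD3, chr20:11890787-11890827, plus strand: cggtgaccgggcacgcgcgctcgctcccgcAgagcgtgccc
Starts with A (SNPH, JAG1, IDH3B, RBCK1), with G (SNRPB, PCNA, FKBP1A) and with C (RASSF2) all occurred among these members, which were low in both clones. These are annotated starts and were not measured in these cells. Some lie inside the GENCODE gene positions used for the members. The RASSF2 window is placed at base 4815147, while its GENCODE gene starts at base 4823608. The RBCK1 window is placed at base 408299, while its GENCODE gene starts at base 407498. Whether the folds depend on the start base was not tested.

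The members together took less of the mRNA in the clones than in control. Their summed level was 4431.8 ± 46.3 TPM in KO1, 4406.9 ± 53.4 TPM in KO2 and 6606.2 ± 179 TPM in control (SD, n = 3 each). The clones thus held 67.1% and 66.7% of the control sum. By reads, the members took 0.360% ± 0.00251 of the counted reads in KO1, 0.359% ± 0.00208 in KO2 and 0.537% ± 0.00885 in control. In a bulk sample, fewer cells with a normal level and a lower level per cell cannot be told apart.

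The typical member was lower by about the same amount in both clones. The median log2 fold change against control was -0.53 in KO1, with the middle 50% of members between -0.72 and -0.37, and -0.53 in KO2, with the middle 50% between -0.68 and -0.39. The medians over all 14512 tested genes were 0.035 and 0.0099. In linear terms the median member stood at 69.5% of control in KO1 and at 69.1% in KO2. In KO1, 44 of 69 members (63.8%) lay within 0.25 log2 of that median, where 11.3% of all tested genes lay. In KO2, 46 members (66.7%) lay that close, where 12.5% of all tested genes lay. Both windows were centred on the members' own median, on which the stretch was chosen, so nothing is read from these shares. Around their own medians, the middle 50% of all tested genes lay between -0.145 and 0.22 in KO1 and between -0.16 and 0.18 in KO2. The 2 comparisons share the control libraries, so each is given on its own and no agreement between them is computed.

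**Figure D1:**
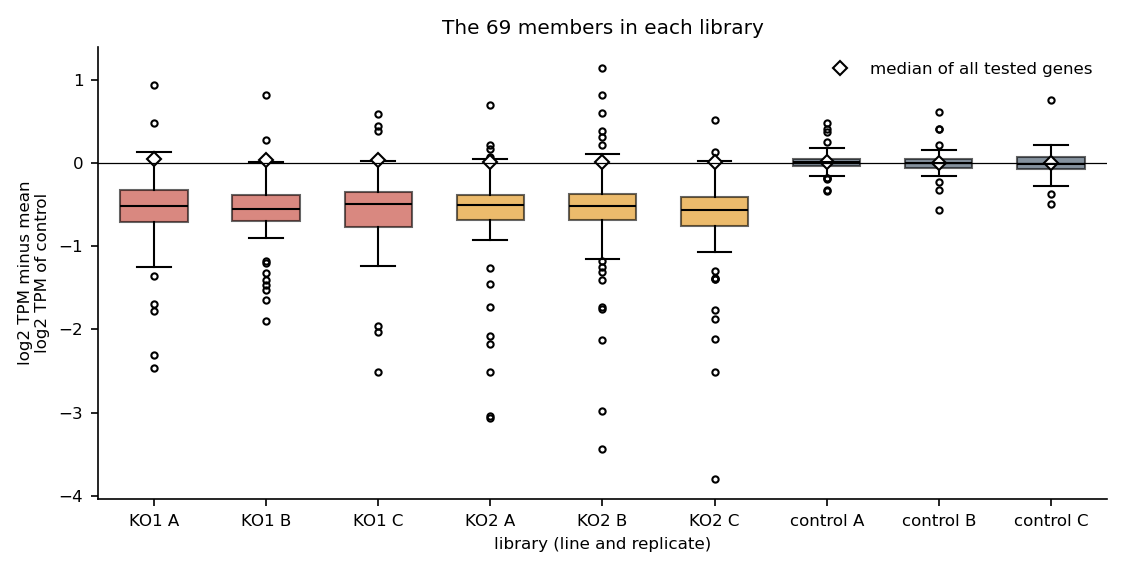
Log2 TPM of the 69 members in each of the 9 libraries, minus the member's mean log2 TPM in control; boxes span the middle 50% of members with the median as a line, and the diamond is the median of all tested genes. The member medians sit between -0.57 and -0.49 in the 6 knockout libraries and near 0 in the 3 control libraries, while the diamonds stay near 0 in all 9.

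All 3 KO1 libraries lay below all 3 control libraries for 59 members, beside 20.7% of all tested genes, and all 3 KO2 libraries did so for 54 members, beside 21.4%. For 54 members the libraries of both clones lay below control, beside 11.3% of all tested genes. A single member in each clone lay above control in all libraries, GAPDHP2 in KO1 (beside 29.1% of all tested genes) and TASP1 in KO2 (beside 22.3%). By the limma fit (moderated linear models over all genes, Benjamini-Hochberg adjusted p under 0.05), 51 members were called lower in KO1, where 14.1% of all tested genes were, and 54 in KO2, where 14.8% were. The same pair was called higher, GAPDHP2 in KO1 and TASP1 in KO2, beside 20.2% and 15.6% of all tested genes. The choice of the stretch used these contrasts, so nothing is read from these counts.

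Along the chromosome the low levels ran mostly up to JAG1, with exceptions. The first 65 members, up to and including JAG1, had a median log2 fold change of -0.53 in KO1 and -0.54 in KO2. Of these, 51 were called lower in KO1, beside 14.1% of all tested genes, and 54 in KO2, beside 14.8%. Exceptions called in neither clone included LRRN4 (0.78 in KO1 and 0.19 in KO2), TMX4 (-0.22 and 0.11) and FAM110A (0.05 and -0.23). FAM110A was named after its value was seen. Nearest the end of the arm, C20orf96 had -1 in KO1 and -0.65 in KO2, ZCCHC3 had -0.56 and -0.51, and the antisense RNA NRSN2-AS1 had -0.52 and -0.12. No tested gene lay nearer to the end of the arm. The last 4 members lay after JAG1, and none of them was below control in all libraries of a clone. This split was made after their values were seen and carries no test.

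BTBD3, a BTB-domain protein known from dendrite shaping, had 18.2, 18.9 and 19.7 TPM in KO1, 19.9, 21.1 and 20.2 TPM in KO2, and 22.0, 19.3 and 20.1 TPM in control. SPTLC3, a subunit of serine palmitoyltransferase, which begins sphingolipid synthesis, had 2.59, 2.40 and 2.78 TPM in KO1, 2.89, 2.62 and 2.78 TPM in KO2, and 2.94, 2.70 and 2.62 TPM in control. The libraries of each clone overlapped those of control at both genes. TASP1, the protease that cleaves MLL proteins, had 7.60, 7.03 and 9.22 TPM in KO1, 11.5, 9.25 and 10.1 TPM in KO2, and 6.18, 7.20 and 7.96 TPM in control. Its KO2 libraries lay above control and its KO1 libraries overlapped with control. GAPDHP2, the processed pseudogene, was at 0.40 in KO1 and 0.15 in KO2 on the log2 scale, but as a near copy of GAPDH its count is uncertain.

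Of the next 3 tested genes beyond the far end, ESF1 and KIF16B were near control and NDUFAF5 was low in KO2. ESF1, whose yeast counterpart works in ribosome biogenesis, was at 0.22 in KO1 and 0.19 in KO2 on the log2 scale. NDUFAF5, an assembly factor of respiratory complex I, had -0.07 and -0.47, with all 3 KO2 libraries below control, and KIF16B, an endosome motor, had -0.10 and 0.02. The 46 tested genes of the rest of the short arm had a median of -0.06 in KO1 and -0.003 in KO2 on that scale. They ranged from -1.42 to 3.61 in KO1, with 4 called lower and 6 higher, and from -3.15 to 5.82 in KO2, with 9 called lower and 3 higher. The 260 tested genes of chromosome 20 beyond base 27000000 had medians of 0.05 and -0.0086. The 6 genes left out by their symbols lay inside the stretch and ranged from -1.28 to -0.33 in KO1 and from -1.32 to -0.28 in KO2. MRPS26, a mitochondrial ribosomal protein and the most abundant of them, averaged 212 TPM in KO1, 266 TPM in KO2 and 358 TPM in control. The remaining listed genes, ADRA1D and PLCB1, fell short of 1 TPM, and PLCB1 had 7 reads in KO1, 184 in KO2 and 25 in control over the 3 libraries of each line.

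**Figure D2:**
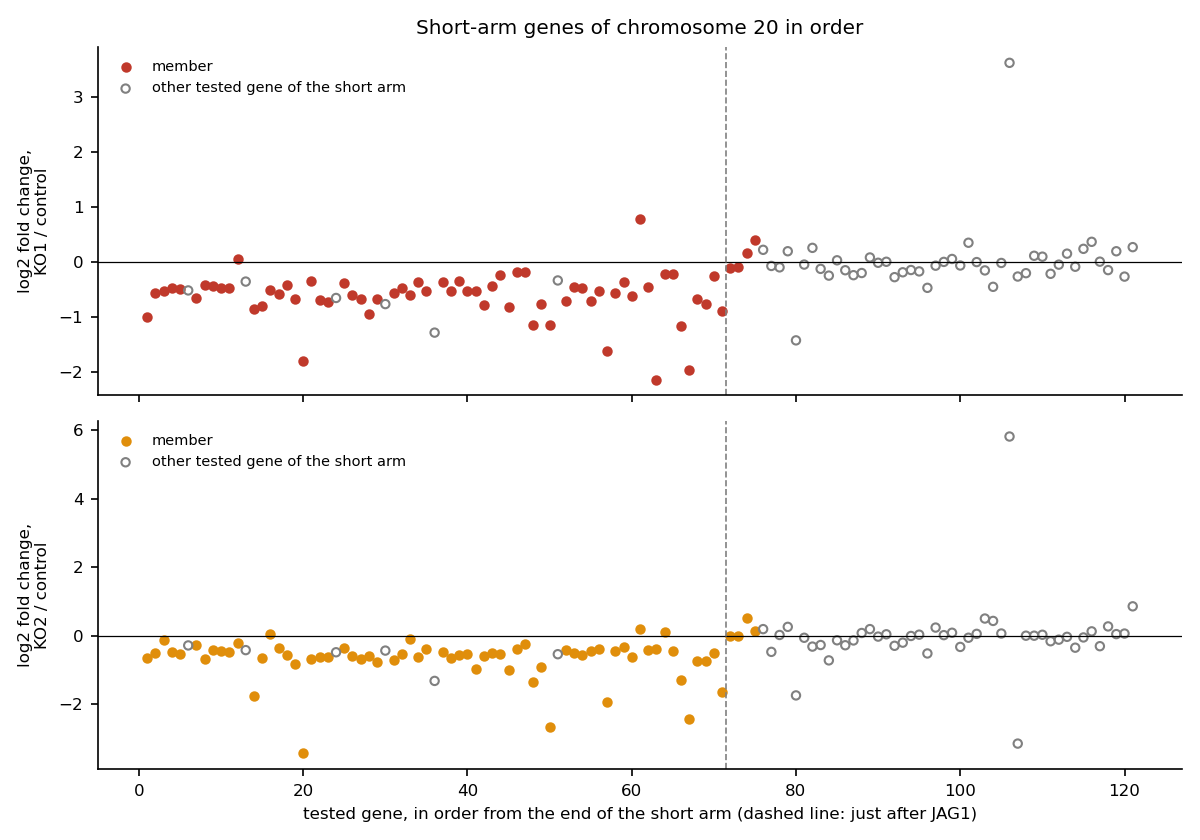
Log2 fold change against control of each tested short-arm gene of chromosome 20, in chromosome order, for KO1 (top) and KO2 (bottom); filled points are the 69 members, open points are other tested genes, and the dashed line follows JAG1. Filled points lie mostly near -0.5 to the left of the line, and points to its right scatter around 0.

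Among the genes of DNA replication, repair and chromosomes, all 7 members had log2 values below 0 in both clones, from -0.53 to -0.26 in KO1 and from -0.96 to -0.34 in KO2. Of all 14512 tested genes, 6431 lay below 0 in KO1 and 7006 in KO2, and nothing is read from this count. PCNA, the clamp that holds DNA polymerases on their template, had 355, 393 and 378 TPM in KO1, 359, 345 and 376 TPM in KO2, and 533, 503 and 503 TPM in control. No knockout library reached the lowest control library. CENPB, which binds the centromeric alpha-satellite box, averaged 303 ± 17 TPM in KO1, 300 ± 20.2 TPM in KO2 and 437 ± 27.1 TPM in control (SD, n = 3 each). CDC25B, the phosphatase that activates cyclin-dependent kinases before mitosis, had 149, 141 and 150 TPM in KO1, 112, 114 and 100 TPM in KO2, and 208, 205 and 221 TPM in control. Its 3 lines did not overlap, with KO2 lowest. ITPA, which clears inosine triphosphate from the nucleotide pool, was at -0.52 in KO1 and -0.39 in KO2. The rarer SHLD1 and SLX4IP, both DNA repair factors, had mean levels of 4.85 and 6.05 TPM and standard errors of 0.23 and 0.12 log2, so their folds were less precise than the 0.05 of PCNA.

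The RNA processing members were 4 abundant genes, and all of them were lower in every library of both clones than in control, beside 11.3% of all tested genes. The stretch was selected on these contrasts, so nothing is read from this count. SNRPB, the most abundant member and the source of the SmB and SmB' proteins of the spliceosomal ring, had 964, 960 and 946 TPM in KO1, 1010, 1016 and 1002 TPM in KO2, and 1434, 1549 and 1665 TPM in control. The replicates of each clone lay within 20 TPM of each other, and those of control lay far above both. NOP56, a scaffold of box C/D small nucleolar RNPs, averaged 215 ± 4.35 TPM in KO1, 219 ± 3.76 TPM in KO2 and 279 ± 5.08 TPM in control (SD, n = 3 each). TRMT6, a subunit of the tRNA m1A methyltransferase, was at -0.56 (KO1) and -0.44 (KO2) on the log2 scale. FASTKD5, a mitochondrial RNA processing factor, had -0.47 and -0.54.

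Of 12 members in the list of kinases, ubiquitin and folding factors, the median log2 fold change was -0.43 in KO1 and -0.60 in KO2. FKBP1A, the binding protein of FK506 and rapamycin, had 255, 276 and 258 TPM in KO1, 220, 252 and 245 TPM in KO2, and 370, 337 and 347 TPM in control. RBCK1 (HOIL-1), a subunit of the linear ubiquitin ligase, had 91.9, 80.0 and 76.8 TPM in KO1, 103, 116 and 100 TPM in KO2, and 130, 129 and 130 TPM in control. RBCK1 was lowest in KO1 and highest in control, with no overlap, and FKBP1A was lowest in KO2 by a small margin that was not called between the clones. DDRGK1, an adaptor of the UFM1 ligase at the endoplasmic reticulum, was at -0.36 (KO1) and -0.63 (KO2) on the log2 scale. CSNK2A1, a catalytic subunit of protein kinase CK2, averaged 17.8 ± 0.366 TPM in KO1, 18.1 ± 0.567 TPM in KO2 and 24.0 ± 0.682 TPM in control (SD, n = 3 each). TMX4, a thioredoxin-related membrane protein, was among the members nearest to control, at log2 values of -0.22 in KO1 and 0.11 in KO2.

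The 8 members of membrane traffic and fusion had log2 values below 0 in both clones and included some of the lowest values. Nothing is read from this count either, beside 6431 of 14512 tested genes below 0 in KO1 and 7006 in KO2. VPS16, a core subunit of the HOPS and CORVET tethers, had 35.5, 35.5 and 33.2 TPM in KO1, 44.9, 43.6 and 42.9 TPM in KO2, and 65.9, 71.7 and 62.3 TPM in control. TMEM230, a vesicle membrane protein, had 66.8, 70.3 and 74.9 TPM in KO1, 83.1, 84.2 and 89.2 TPM in KO2, and 119, 117 and 109 TPM in control. In both genes KO1 was lowest, KO2 intermediate and control highest, with no overlap. SNAP25, a SNARE of neuronal exocytosis, had 2.41, 4.13 and 2.91 TPM in KO1, 1.44, 2.73 and 2.75 TPM in KO2, and 11.9, 12.4 and 11.3 TPM in control. SNPH, syntaphilin, which anchors mitochondria in axons, had 5.61, 6.32 and 4.87 TPM in KO1, 2.36, 2.95 and 3.8 TPM in KO2, and 10.0, 10.1 and 9.86 TPM in control. Both genes lay further below control than the median member, SNAP25 by -1.95 in KO1 and -2.43 in KO2 on the log2 scale.

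The metabolic members ranged from -1.15 to -0.09 in KO1 and from -1.36 to 0.0056 in KO2, with SMOX lowest. IDH3B, a subunit of the mitochondrial NAD isocitrate dehydrogenase, had 166, 167 and 166 TPM in KO1, 175, 161 and 170 TPM in KO2, and 236, 258 and 262 TPM in control. SRXN1, which repairs overoxidised peroxiredoxins, averaged 88.7 ± 3.19 TPM in KO1, 89.4 ± 4.26 TPM in KO2 and 123 ± 6.33 TPM in control (SD, n = 3 each). The clones overlapped each other at both genes and lay clear of control. SMOX, spermine oxidase, had 40.6, 39.4 and 41.0 TPM in KO1, 32.6, 35.9 and 36.2 TPM in KO2, and 84.2, 89.4 and 94.7 TPM in control. It was the lowest member among those with a mean of at least 20 TPM, at -1.15 in KO1 and -1.36 in KO2. PANK2, which starts coenzyme A synthesis in mitochondria, was closer to control, at -0.19 and -0.39.

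The 12 ligands, receptors and signalling members varied most. PRNP, the prion protein, had 223, 219 and 207 TPM in KO1, 192, 196 and 198 TPM in KO2, and 368, 361 and 366 TPM in control. PTPRA, a receptor tyrosine phosphatase that activates Src kinases, averaged 52.2 ± 4.50 TPM in KO1, 49.5 ± 4.53 TPM in KO2 and 83.2 ± 1.7 TPM in control (SD, n = 3 each). MAVS, the mitochondrial adaptor of RIG-I-like receptors, had 46.7, 46.7 and 48.0 TPM in KO1, 39.3, 39.4 and 35.9 TPM in KO2, and 57.2, 52.8 and 55.8 TPM in control. All 3 genes lay below control without overlap, and of the 3 MAVS lay closest to control in KO1. FERMT1 (kindlin-1), an integrin activator, was at -0.45 (KO1) and -0.42 (KO2).

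The less abundant signalling genes spread wider. JAG1, a Notch ligand, had 4.99, 5.79 and 5.54 TPM in KO1, 3.03, 3.82 and 2.96 TPM in KO2, and 10.8, 10.6 and 9 TPM in control. SIRPA, the receptor of the CD47 signal against phagocytosis, had 1.75, 1.92 and 1.55 TPM in KO1, 0.722, 0.556 and 0.435 TPM in KO2, and 5.97, 5.69 and 6.45 TPM in control. RASSF2, a Ras-association protein, had 1.27, 1.75 and 1.43 TPM in KO1, 0.567, 0.411 and 0.566 TPM in KO2, and 3.28, 2.77 and 3.75 TPM in control. All 3 genes were lowest in KO2 and highest in control, with no overlap between any 2 lines. SIRPA and RASSF2 rested on 70 and 68 reads in KO1, 21 and 22 in KO2, and 252 and 155 in control over the 3 libraries of a line. BMP2, a ligand of bone morphogenetic protein receptors, had 1.03, 2.13 and 0.994 TPM in KO1, 3.11, 5.32 and 4.81 TPM in KO2, and 5.67, 6.27 and 5.14 TPM in control. Its KO1 libraries were low while those of KO2 overlapped with control. CHGB, a granin of secretory granules, had 24 reads in KO1, 18 in KO2 and 77 in control, and stood at -1.62 in KO1 and -1.93 in KO2. LRRN4, a leucine-rich repeat membrane protein, had the highest mean fold of both clones among the 69, with 4.04, 3.75 and 3.20 TPM in KO1, 2.39, 3.74 and 1.60 TPM in KO2, and 1.87, 1.43 and 3.60 TPM in control. Its libraries overlapped between the lines.

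**Figure D3:**
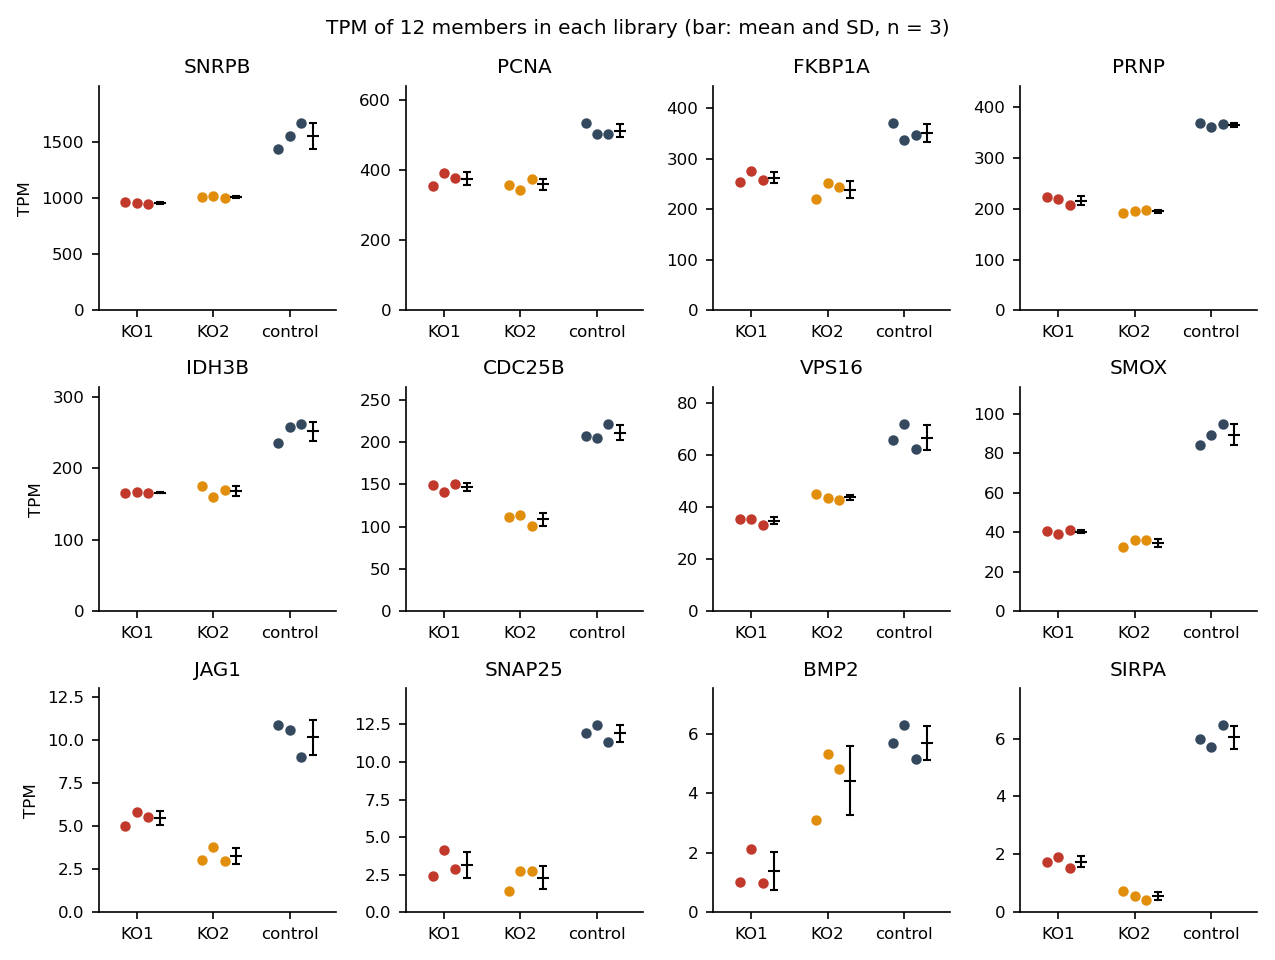
TPM of 12 members in each library of KO1, KO2 and control, with the mean and SD (n = 3) as bars; each vertical axis starts at 0. SNRPB, PCNA, FKBP1A and IDH3B lie below control in every library of both clones, VPS16 is lowest in KO1, CDC25B, JAG1 and SIRPA are lowest in KO2, and BMP2 is low in KO1.

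The spread of the folds narrowed with abundance. The 34 members with a mean of at least 20 TPM ranged from -1.15 to -0.19 in KO1 and from -1.36 to -0.28 in KO2. The 25 members at 5 to 20 TPM ranged from -1.95 to 0.40 in KO1 and from -2.43 to 0.53 in KO2, and the 10 members under 5 TPM from -2.13 to 0.78 and from -3.43 to 0.19. Fewer reads stand behind the rarer genes, and their part in this spread was not tested. The 3 transcription regulator members were ZCCHC3, a zinc-knuckle protein that binds nucleic acids, and SOX12, an SRY-box factor, with -0.56 and -0.47 in KO1 and -0.51 and -0.48 in KO2, beside BTBD3. Of the 15 members in no role list, NRSN2 averaged 64.8 ± 1.19 TPM in KO1, 63.3 ± 2.10 TPM in KO2 and 91.1 ± 7.77 TPM in control (SD, n = 3 each), and the group ranged from -1.16 to 0.40 in KO1 and from -1.30 to 0.15 in KO2. Several entries share sequence with a neighbour and are uncertain, namely the overlapping or read-through entries ENSG00000270299 (with SRXN1), ENSG00000256566 (with SNRPB), ENSG00000274322 (with FKBP1A and SDCBP2) and ENSG00000285508 (with MKKS). The antisense genes NRSN2-AS1, SDCBP2-AS1 and PANK2-AS1 are uncertain too, since no source used here states whether reads were counted by strand.

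The direct comparison of KO2 with KO1 gave a median difference near 0 and calls at a minority of members. This difference is the KO2 fold change minus the KO1 fold change, and the stretch was selected on both. Neither its median over the members nor the count of calls is therefore independent of the choice. They are given as a description. The median log2 difference, KO2 minus KO1, was -0.03 over the members and -0.04 over all tested genes. By limma, 18 of 69 members (26.1%) were called, 12 lower and 6 higher in KO2, and 28.7% of all tested genes were called, 16.9% lower and 11.8% higher. The share of members that differed between the clones was thus near that of all genes. With each library centred on its median the calls split into 9 lower and 8 higher, and by limma-voom on recovered reads into 10 lower and 8 higher. The 3 KO2 libraries did not overlap the 3 KO1 libraries at 33 members, beside 43% of all tested genes. Of the members, 44 (63.8%) differed by less than 0.25 log2, beside 64.7% of all tested genes.

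The largest differences between the clones were at rare members. SIRPA was lower in KO2 by limma, with a log2 difference of -1.63 ± 0.22 (SE; adjusted p = 0.000503), with 0.435 to 0.722 TPM in KO2 and 1.55 to 1.92 TPM in KO1. RASSF2 was lower by -1.53 ± 0.24 (limma adjusted p = 0.00122), SNPH by -0.90 ± 0.17 (0.00360) and JAG1 by -0.74 ± 0.14 (0.00299). BMP2 went the other way and was higher in KO2, with a log2 difference of 1.73 ± 0.30 (limma adjusted p = 0.00234). At these 5 genes the 3 KO2 libraries and the 3 KO1 libraries did not overlap, beside 43% of all tested genes. The 5 were named for the size of their called differences, so nothing is read from this. LZTS3, a leucine zipper protein of synapses, was higher in KO2 by 0.49 ± 0.14 (limma adjusted p = 0.0276), but this call was lost without KO1 B (adjusted p = 0.0843), KO1 C (0.0840), KO2 A (0.0925) or KO2 B (0.0853) and with only the 2 clones in the fit (0.0650).

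Among abundant members the differences were smaller. CDC25B was lower in KO2 by -0.44 ± 0.05 (limma adjusted p = 0.000330), RBCK1 was higher by 0.36 ± 0.07 (0.00403), VPS16 was higher by 0.33 ± 0.06 (0.00233), TMEM230 was higher by 0.28 ± 0.05 (0.00435) and MAVS was lower by -0.30 ± 0.05 (0.00231). DDRGK1, at -0.27, and STK35, a kinase named here after its value was seen, at -0.34, were also lower in KO2 (limma adjusted p = 0.0148 and 0.00965). PRNP was lower by -0.15 (limma adjusted p = 0.0108), a call lost with median centring (0.0587) and by limma-voom (0.05). SMOX, PANK2 and TBC1D20 were lower in KO2 and TMX4 was higher, with limma adjusted p between 0.0166 and 0.0428. Each of these 4 calls was lost without KO2 A or without KO1 C, those of SMOX and TBC1D20 also without KO1 A, that of TMX4 without KO1 B, and that of PANK2 without any clone library or without control C. In these fits the limma adjusted p lay between 0.0567 and 0.134. The call of PANK2 was also lost with the replicate block (adjusted p = 0.0833), median centring (0.127), quantile normalization (0.117), limma-voom (0.0836) and only the 2 clones in the fit (0.0637). That of SMOX was lost with median centring (0.0768) and limma-voom (0.0909), and that of TBC1D20 with only the 2 clones (0.0508).

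For many abundant members the interval of the difference between the clones was narrow. Among members whose mean reached 20 TPM, 24 were not called, and their 95% confidence intervals for KO2 minus KO1 lay between -0.37 and 0.27 log2. For SNRPB the interval ran from -0.027 to 0.182, for PCNA from -0.166 to 0.044, for NOP56 from -0.048 to 0.095 and for IDH3B from -0.087 to 0.120. A member that missed the threshold is not thereby shown to be equal in both clones.

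**Figure D4:**
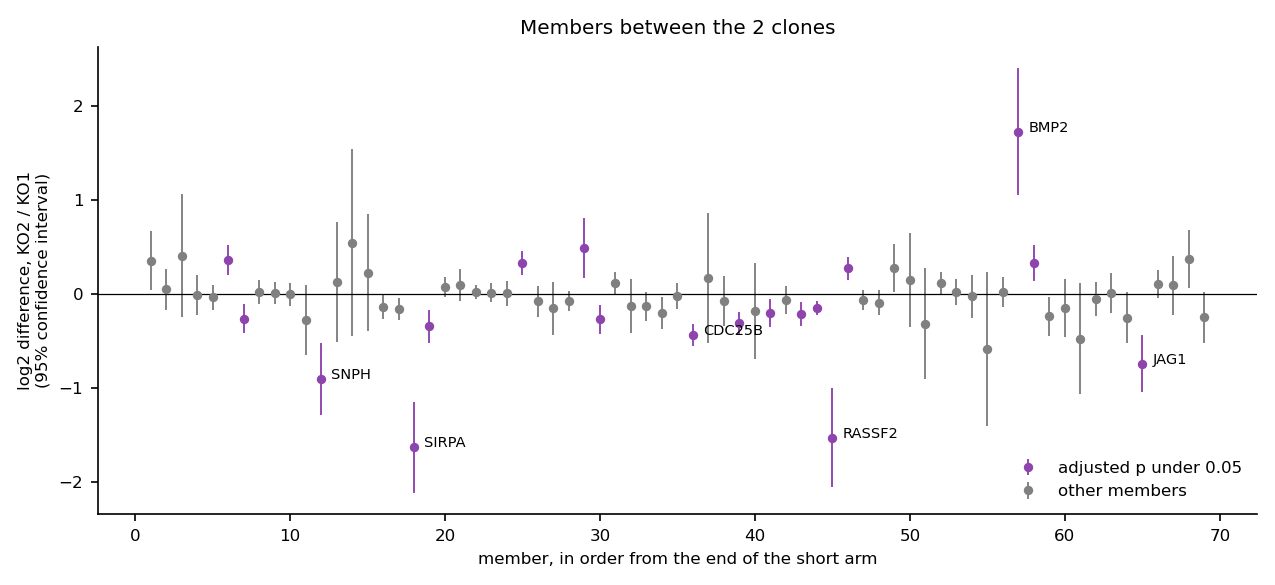
Log2 difference, KO2 over KO1, of each member in chromosome order, with the 95% confidence interval of the limma fit; coloured points have an adjusted p under 0.05. Most intervals of the members include 0, while SIRPA, RASSF2, SNPH, JAG1 and CDC25B lie below 0 and BMP2 lies above it.

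Many members work with products of genes on other chromosomes, and 58 such partners of 21 members were compared. The partners include subunits of the same complex, receptors, a ligand and other related proteins. All 58 were tested. In KO1, 20 partners (34.5%) were called by limma, 5 lower and 15 higher than control, beside 34.3% of all tested genes, and their median log2 fold change was 0.02. In KO2, 17 partners (29.3%) were called, 9 lower and 8 higher, beside 30.4% of all tested genes, with a median of 0.0081. The partners were therefore called about as often as other genes, and their medians lay near 0. These counts depended on single libraries, since in KO1 they were 12 without KO1 C or without control B, and in KO2 they were 11 without KO2 C or without control B. Of the calls, 12 in KO1 and 9 in KO2 were kept under every alternative setting.

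Members came from a stretch selected on these folds and partners did not, so nothing is read from the distance between them. The spliceosomal ring is an abundant case. SNRPB was at -0.69 in KO1 and -0.61 in KO2, while its 6 ring partners ranged from -0.20 to 0.19 in KO1 and from -0.04 to 0.17 in KO2. SNRPD1 was higher in both clones (0.19 and 0.17, limma adjusted p = 0.00625 and 0.0113), and SNRPD2 was lower in KO1 (-0.20, adjusted p = 0.00285) with 0.11 in KO2 (adjusted p = 0.0618). Without KO2 B, SNRPD2 was called higher in KO2 (limma adjusted p = 0.0257). SNRPD3 was called higher in KO1 (0.15, adjusted p = 0.0308), a call lost without KO1 B (0.0607), KO1 C (0.120) or any control library (0.0613 to 0.0832). That call was also lost with median centring (limma adjusted p = 0.112), quantile normalization (0.0685), no variance trend (0.0709) and limma-voom (0.162). SNRPE, SNRPF and SNRPG were not called in either clone. Next to NOP56, at -0.37 and -0.35, its partner NOP58 was higher in both clones (0.55 and 0.45, limma adjusted p = 3.1e-05 and 9.48e-05). FBL, the methyltransferase of the same RNP, was at -0.07 and 0.0052 and was not called, but limma-voom called it lower in KO1 (adjusted p = 0.0147). SNU13 was higher in KO2 (0.13, limma adjusted p = 0.00885), a call lost by limma-voom (0.0541).

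The other complexes gave mixed values. Next to PCNA, at -0.45 in KO1 and -0.51 in KO2, RFC4 of the clamp loader was lower in KO2 (-0.28, limma adjusted p = 0.00613), while RFC2 was called higher in both clones (0.13 and 0.16, adjusted p = 0.0440 and 0.0180). The KO1 call of RFC2 was lost without KO1 A (0.104), KO1 C (0.150), KO2 A (0.0620) or any control library (0.0578 to 0.145), and its KO2 call without KO2 A (0.0532), KO2 C (0.0547) or control B (0.0719). The KO1 call was also lost with median centring (limma adjusted p = 0.144), quantile normalization (0.0742), no variance trend (0.0966) and limma-voom (0.307). With no variance trend the KO2 call of RFC2 was lost too (0.0521). RFC1, RFC3 and RFC5 were not called in the main fit. RFC3 was called higher in KO2 without KO2 B (limma adjusted p = 0.0268), and RFC5 lower in KO1 by limma-voom (0.0311). Of the 7 tether partners of VPS16, only VPS18 was called in the main fit, higher in KO1 (0.21, limma adjusted p = 0.00909). VPS39 was called lower by limma-voom in KO1 (0.0135) and KO2 (0.0422), and with median centring in KO1 (0.0451). VPS11 was called lower in KO2 without KO2 B (limma adjusted p = 0.0421). AP5Z1, which works with AP5S1 in the AP-5 adaptor, was higher in both clones (0.58 and 0.42, adjusted p = 0.000679 and 0.00421). MAD2L2, the shieldin partner of SHLD1, was lower in both (-0.32 and -0.44, adjusted p = 0.0193 and 0.00416), though the KO1 call was lost without KO1 B (0.0547), KO1 C (0.0622) or control B (0.0581). SHLD2 of the same complex was higher in KO2 (0.43, adjusted p = 0.000574) with -0.16 in KO1 (0.0673), and SHLD3 was not called. SHLD2 was called lower in KO1 with median centring (limma adjusted p = 0.0362), quantile normalization (0.0453) and limma-voom (0.0380).

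Among the receptors of the ligands, NOTCH2 was higher in KO1 (0.43, limma adjusted p = 0.000353) and lower in KO2 (-0.17, adjusted p = 0.0391). The KO2 call of NOTCH2 was lost without KO1 A (0.0530), KO2 A (0.0618), KO2 C (0.0998) or any control library (0.0697 to 0.0984), and with the replicate block (0.0783). It was also lost with no variance trend (limma adjusted p = 0.0728) and with only the 2 lines compared (0.0673). NOTCH1 was lower in KO2 (-0.42, adjusted p = 0.00466) with 0.24 in KO1 (0.0532). In KO1 it was called higher with log2(TPM + 1) (limma adjusted p = 0.0496), log2(TPM + 5) (0.0422) and a mean of at least 5 TPM (0.0460). The same call was made with only the 2 lines compared (0.0262), by limma-voom (0.0258) and without KO2 B (0.0432) or KO2 C (0.0214). BMPR2, a receptor of BMP2, was higher in KO1 (0.62, limma adjusted p = 0.000870) and was at 0.09 in KO2 (0.507). BMPR1A, another receptor of BMP2, was called higher in KO2 (0.36, adjusted p = 0.0231) and was at 0.10 in KO1 (0.494), and the KO2 call was lost without KO2 A (0.0799), KO2 C (0.0589), control B (0.0607) or control C (0.0763). CD47, the ligand of SIRPA, was called higher in KO1 (0.25, limma adjusted p = 0.0300) and was at 0.14 in KO2 (0.211). The KO1 call of CD47 was lost with the replicate block (0.0629) and without KO1 B (0.0824), KO1 C (0.0853), control B (0.107) or control C (0.101). Without control A, CD47 was called higher in KO2 (limma adjusted p = 0.0416). Integrin beta 1 (ITGB1), which FERMT1 binds, was lower in both clones (-0.28 and -0.41, limma adjusted p = 0.00105 and 9.24e-05). CSNK2A2, the other catalytic subunit of CK2, was at 0.17 in KO1 (adjusted p = 0.0123) and at -0.03 in KO2 (0.660), while CSNK2A1 stood at -0.43 and -0.41.

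**Figure D5:**
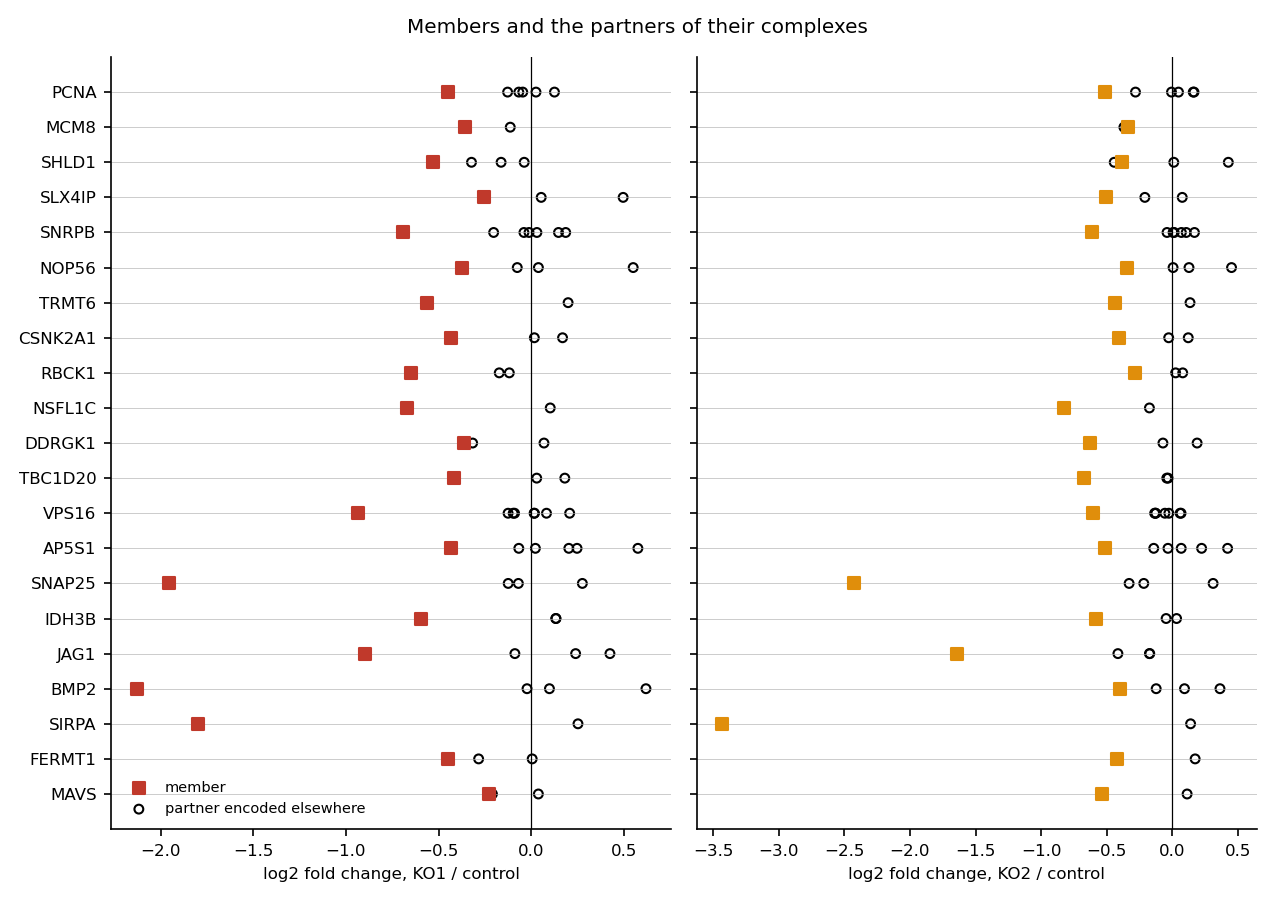
Log2 fold change against control in KO1 (left) and KO2 (right) of 21 members, as squares, and of their partners encoded elsewhere, as open circles, with 1 row per member. Partners gather around 0, and squares lie to the left of 0 in every row. The stretch of the squares was selected on these folds, so nothing is read from their distance to the partners.

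The start bases and promoter letters of the members were compared with those of all tested genes. A RefSeq start window was found for 44 members, 12 of them with more than 1 start, of which the most upstream one was used. The first base was A at 16 members (36.4%), G at 23 (52.3%), C at 4 and T at 1, and at all tested genes with a window A made up 45.1% and G 41.1%. Members that start with A stood at a median of -0.55 in KO1 and -0.44 in KO2, and members that start with G had -0.49 and -0.56. Of 4 motifs searched on both strands of the window from 250 bases before to 50 bases after the start, TATAAA occurred in 1 of 44 members (PANK2), beside 5.52% of tested genes' promoters and 12% of all. CCAAT occurred in 18 members (40.9%), beside 37.6% and 35.7%. The E-box CACGTG occurred in 6 members (13.6%), beside 10.3% and 7.41%, and the core of the NRF1 site in 11 members (25%), beside 12.4% and 6.28%. These are matches of letters, and overlaps between matches were not examined.

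Several neighbours start back to back, within 1000 bases of each other on opposite strands, and 4 such pairs were found. The sequences between the RefSeq starts are shown for CENPB with CDC25B and for TRMT6 with MCM8. The first base of each RefSeq transcript is in capitals at the ends (the left one on the opposite strand). By the GENCODE positions used for the members, CDC25B starts at base 3786772 and TRMT6 at base 5950558, inside the sequences shown. The region before both genes of a pair is thus shorter by GENCODE.
CENPB and CDC25B, chr20:3786740-3786951, plus strand: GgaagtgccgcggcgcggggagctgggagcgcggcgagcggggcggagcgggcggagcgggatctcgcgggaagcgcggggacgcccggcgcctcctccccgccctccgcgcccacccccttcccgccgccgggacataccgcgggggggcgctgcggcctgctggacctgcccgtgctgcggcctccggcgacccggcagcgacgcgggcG
TRMT6 and MCM8, chr20:5950533-5950652, plus strand: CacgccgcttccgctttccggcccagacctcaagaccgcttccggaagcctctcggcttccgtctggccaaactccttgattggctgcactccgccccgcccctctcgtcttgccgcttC
In KO1, CENPB and CDC25B had nearly equal folds of -0.53 and -0.52, and in KO2 they had -0.54 and -0.96. TRMT6 and MCM8 had -0.56 and -0.36 in KO1 and -0.44 and -0.34 in KO2. PCNA and CDS2, whose RefSeq starts lie 386 bases apart, had -0.45 and -0.48 in KO1 and -0.51 and -0.57 in KO2. Both genes of these 3 pairs were thus below control in both clones, with CDC25B further below in KO2 than its neighbour. The pair of NRSN2-AS1 and SOX12 had -0.52 and -0.47 in KO1 and -0.12 and -0.48 in KO2.

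Markers of other cell types were few in the table. Of 6 leukocyte markers only CD68 was listed, at 129 to 139 TPM in KO1, 134 to 143 TPM in KO2 and 180 to 192 TPM in control. Of 6 endothelial markers ESAM and EGFL7 were listed, with a sum of 16 to 16.9 TPM in KO1, 15.5 to 17.7 TPM in KO2 and 8.57 to 9.55 TPM in control. Of 6 epithelial markers KRT8 and KRT18 were listed, with a sum of 948 to 988 TPM in KO1, 851 to 928 TPM in KO2 and 1060 to 1080 TPM in control. Of 7 fibroblast markers COL1A1, LUM and PDGFRB were listed, with a sum of 12.8 to 13.5 TPM in KO1, 10.8 to 11.4 TPM in KO2 and 12.9 to 13.1 TPM in control. PDGFRB made up most of that sum, and LUM averaged 2.39 TPM in KO1, 1.15 TPM in KO2 and 0.0665 TPM in control. PTPRC, CD3E, CD14, PECAM1, VWF, EPCAM and CDH1, which define such cells, were not among the listed genes. The part of these differences in the members' levels was not tested.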

How the data were processed

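The authors deposited log2 TPM values of 15258 genes for the 9 input libraries. The submitters' processing notes name genome build hg38 and the tools edgeR 3.12.1, featureCounts, HISAT2 2.0.4 and SAMtools 1.7, without their roles, the annotation or the strand setting. Whole reads were recovered from the steps of the deposited log2 values for 100% of genes (tolerance 0.001 reads) and gave 84602764 reads in all.

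Symbols and positions came from GENCODE 44, which matched 15138 identifiers. The 14512 genes that reached a mean of 1 TPM entered a limma fit (version 3.58.1, R 4.3.3) of the deposited log2 values, with a variance trend and 1 mean per line. This left 6 residual degrees of freedom. P-values were adjusted by Benjamini-Hochberg over these genes, and a gene was called at an adjusted p under 0.05. The fit was tested on simulated data. Replicate letters did not pair the libraries, so no block was used.

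The members, role lists, partners and tests were chosen with earlier results of these data known. Named were the most abundant members of each list, those with extreme folds, those that differed most between the clones, the genes at the ends and PCIF1. Folds against control are given for only some of the partners, and called ones are among those left out.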

Additional observations from a re-analysis of the deposited data

Results flagged for a closer look

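Results are listed here where the effects of the 2 clones differed by the test of KO2 against KO1 (limma, Benjamini-Hochberg adjusted p under 0.05 over all tested genes). Values are log2 differences, KO2 minus KO1.

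Of the 69 members, 18 differed, beside 28.7% of all tested genes. Higher in KO2 were BMP2 (1.73), LZTS3 (0.49), RBCK1 (0.36), VPS16 (0.33), TMX4 (0.33) and TMEM230 (0.28). Lower in KO2 were SIRPA (-1.63), RASSF2 (-1.53), SNPH (-0.90), JAG1 (-0.74), CDC25B (-0.44), STK35 (-0.34), MAVS (-0.30), DDRGK1 (-0.27), TBC1D20 (-0.26), SMOX (-0.21), PANK2 (-0.20) and PRNP (-0.15).

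Of the partners, 18 of 58 (31.0%) differed, beside 28.7% of all tested genes. Higher in KO2 were SHLD2 (0.59), SNRPD2 (0.31), CDK5RAP3 (0.24), RNF31 (0.20), SHARPIN (0.20) and SNU13 (0.09). Lower in KO2 were NOTCH1 (-0.66), NOTCH2 (-0.60), RIGI (-0.57), BMPR2 (-0.53), SLX4 (-0.42), ZFYVE26 (-0.35), VCP (-0.28), RFC4 (-0.21), RAB1A (-0.21), CSNK2A2 (-0.20), IDH3G (-0.18) and SNRPD3 (-0.14).

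Of other genes, PCIF1 was higher in KO2 by 1.33 and SNRPN by 0.30.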

How the results depend on the processing

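Alternatives were other pseudocounts, filters and scalings, no variance trend, only the 2 lines compared, limma-voom on recovered reads, the replicate block and leaving out each library. Both leaving out the 4 members after JAG1 and leaving out the 4 overlapping entries were chosen after seeing the data. No test of a single gene was reversed. The KO1 median of the members was -0.48 with log2(TPM + 1), -0.42 with log2(TPM + 5), -0.56 with median centring, -0.56 with quantile normalization and -0.57 with limma-voom. The KO2 median was -0.44 with log2(TPM + 5). The median of KO2 minus KO1, -0.0347 as deposited, changed sign to 0.0141 with median centring. Leaving out 1 library gave 12 to 20 called partners in KO1 and 11 to 17 in KO2, a KO2 median of -0.55 to -0.50, and 13 to 19 members called between the clones. With the replicate block, 17 members were called between the clones, and 15 partners in KO1 and 14 in KO2. Libraries of the same letter had correlated deviations of -0.07 to 0.04 over 9 pairs, so the letters name and do not pair them. Of 165 tests of single genes, 124 kept their call under every alternative. Depth limits the members under 5 TPM, such as CHGB with 18 reads in KO2.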

Other observations

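SNRPN on chromosome 15 encodes SmN, a close relative of the SmB protein of SNRPB. It stood in no list and was added outside the rule for named genes. SNRPN had 187, 180 and 169 TPM in KO1, 223, 216 and 220 TPM in KO2, and 103, 106 and 106 TPM in control. All knockout libraries lay above all control libraries, with those of KO2 highest. By limma it was higher in KO1 by 0.77 log2 (adjusted p = 1.14e-06) and in KO2 by 1.06 (adjusted p = 1.36e-07), and these calls were kept under every alternative setting. SNRPB was lower in the same libraries. Because the 2 genes are near copies, reads could be split between them, which was not tested.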
